A study of Mus musculus with 10 samples.

Results

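The insulin-like growth factor (IGF) genes described here are 9 genes of mouse lung: the ligand Igf1, the receptors Igf1r and Igf2r, and the binding proteins Igfbp2, Igfbp3, Igfbp4, Igfbp5, Igfbp6 and Igfbp7. They were taken by symbol from a table of 45786 gene rows, each matching 1 row, and all 9 were among the 15625 genes with enough counts to be tested. The list was chosen by name with measured irradiated-to-control differences of these pools already known, so every irradiation contrast below describes where they stand and is not independent evidence about them. Transcripts were sequenced from whole-lung cell suspensions of C57BL/6J mice, an inbred strain, whose thorax had received 12.5 Gy of γ-rays or, in age-matched mice, 0 Gy. At 24 hours and at 1, 4, 12 and 32 weeks there was 1 irradiated and 1 control pool of 3 mice, giving 5 pools of each kind and no second pool at any time. The labels state neither age, sex nor how the lungs were dissociated, and a suspension holds only cells that survived dissociation.

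IGF1 and IGF2 are secreted growth factors that signal through the tyrosine kinase receptor IGF1R, by way of IRS adaptors, PI3-kinase and AKT. IGF2R, also the cation-independent mannose 6-phosphate receptor, does not relay that signal: it takes IGF2 up for degradation and sorts lysosomal enzymes such as cathepsin D. Most extracellular IGF is held by binding proteins, which lengthen its life, restrict its access to the receptor and release it when proteases cut them. In lung, macrophages and mesenchymal cells are known sources of IGF1, and several binding proteins are made by fibroblasts, endothelium and epithelium.

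The promoters of Igf1, Igfbp2 and Igfbp4 are shown because these genes had the clearest differences described below. Each run holds the 250 bases before a transcription start in RefSeq's promoter table (GRCm38.p6), 5′ to 3′ on the gene's strand, with motif matches in capitals. The start is on the plus strand in all 3 cases.
Igf1, chr10:87860861-87861110: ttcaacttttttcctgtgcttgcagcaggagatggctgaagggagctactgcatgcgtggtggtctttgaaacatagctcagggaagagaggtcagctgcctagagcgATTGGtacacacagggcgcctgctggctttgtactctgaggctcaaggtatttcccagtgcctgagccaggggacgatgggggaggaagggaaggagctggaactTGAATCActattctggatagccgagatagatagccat
Igfbp2, chr1:72824230-72824479: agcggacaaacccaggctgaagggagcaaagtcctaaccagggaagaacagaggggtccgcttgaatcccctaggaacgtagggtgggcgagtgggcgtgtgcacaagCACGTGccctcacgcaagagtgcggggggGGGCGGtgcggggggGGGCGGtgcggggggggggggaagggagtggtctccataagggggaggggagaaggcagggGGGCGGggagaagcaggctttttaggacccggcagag
Igfbp4, chr11:99040994-99041243: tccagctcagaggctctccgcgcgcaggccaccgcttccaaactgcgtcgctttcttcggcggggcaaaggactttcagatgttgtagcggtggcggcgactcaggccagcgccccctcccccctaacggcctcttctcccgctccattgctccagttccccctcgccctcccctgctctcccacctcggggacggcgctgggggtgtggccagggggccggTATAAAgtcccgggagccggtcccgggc
Motifs were searched on both strands as exact letters, and no matches overlapped in these 3 runs. The Igf1 run held a CCAAT box, read on the opposite strand as ATTGG, and an AP-1 site (TGANTCA), while 33.8% and 6.7% of the 32851 promoters in the table held these. The Igfbp2 run held 3 GC boxes (GGGCGG, in 32.7% of promoters) and an E box of Myc type (CACGTG, in 6.0%). A second Igfbp2 start in the table (chr1:72825137-72825386), not shown, had neither motif but an AP-1 site 39 bases before it. A TATA box (TATAAA, in 12.4%) stood in the Igfbp4 run, 28 bases before the start. The p53 decamer motif, in 7.1% of promoters, was matched before none of the starts of the 9 genes. A match of letters is a description and shows no binding.

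Among the 10 libraries, deposited counts summed to between 9983710 and 13509769, and before the authors' rescaling the libraries held from 8679551 fragments in the 12-week control to 17473116 in the 4-week irradiated pool. No pool was at 0 for any marker gene of lung fibroblasts, endothelium, epithelium, macrophages or lymphocytes. Levels are given as CPM, counts scaled to the TMM-adjusted library total, to compare pools, and as FPKM, which is also per length, to compare genes. On CPM, in the irradiated pool of 32 weeks 48.8% of all genes lay outside the range of the 5 controls. It was 43.3% at 24 hours, 41.4% at 1 week, 36.0% at 4 weeks and 43.4% at 12 weeks. Of the 9 IGF genes, 7 lay outside that range at 32 weeks, against 4, 1, 3 and 5 at the earlier times in order.

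Over the 5 control pools, mean FPKM ran from Igfbp7 (232 ± 49.8, SD, n = 5), a low-affinity IGF binder, through Igfbp4 (121 ± 28.8) and Igfbp6 (74.7 ± 20.8) down to Igf1r (0.965 ± 0.332). Between them came Igfbp3 (13.7 ± 2.01), Igfbp5 (9.87 ± 2.15), Igf1 (8.89 ± 3.39), Igfbp2 (5.66 ± 2.31) and Igf2r (2.65 ± 0.906). The control ranges of neighbours in this order were apart only for Igfbp7 and Igfbp4, for Igfbp6 and Igfbp3, and for Igf2r and Igf1r. Igfbp4 was above Igfbp6 in 10 of 10 pools although their ranges overlapped, while Igfbp5 was above Igf1 in 4 of 10 pools. Per length, the suspensions held more binding protein transcript than ligand or receptor transcript, and 3 of the 6 binding proteins made up most of it. Igf2 stayed between 0.697 and 2.87 CPM, and Igfbp1 was at 0 in every pool, where the upper 95% Poisson limit of a count of 0 is 3.69 fragments.

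**Figure D1:**
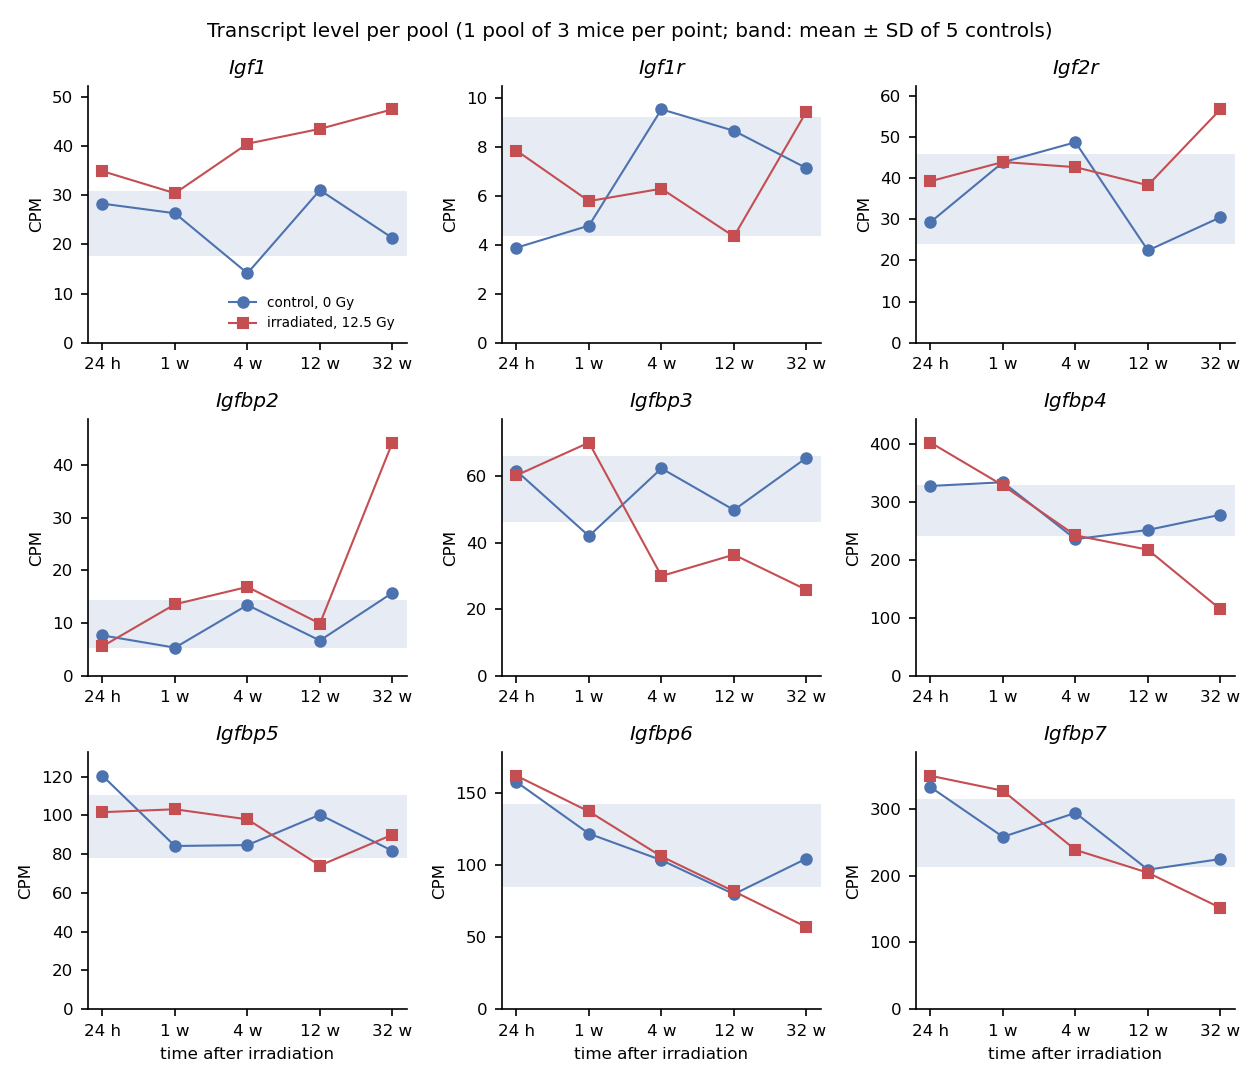
CPM of each of the 9 genes by time after irradiation, 1 pool of 3 mice per point, controls as blue circles and irradiated pools as red squares, with the band at the mean ± SD of the 5 controls. Igf1 was above its matched control at every time, Igfbp2 reached 44.3 CPM at 32 weeks, and Igfbp4 was at 115 CPM in the irradiated pool of that time.

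Igf1, the ligand of the family, was higher in the irradiated pool at each of the 5 times. Control pools held 28.3 CPM at 24 hours, 26.4 at 1 week, 14.1 at 4 weeks, 31.1 at 12 weeks and 21.3 at 32 weeks. Irradiated pools held 34.9, 30.4, 40.5, 43.5 and 47.5 CPM at the same times. The ranges overlapped only through the 1-week irradiated pool, which lay just under the 12-week control, and the other 4 irradiated pools were above all controls. The matched folds were 1.23, 1.16, 2.87, 1.40 and 2.23, and the largest was against the 4-week control, the lowest of the 10 pools. Of all genes tested, 6.75% were higher in 5 of 5 pairs.

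With the 5 times as blocks, Igf1 was 0.73 ± 0.21 (log2 ± SE) higher after irradiation, with an adjusted p of 0.278 in edgeR's quasi-likelihood test. In that comparison 0.0% of 15625 genes passed an adjusted p of 0.05 (1732 had an unadjusted p under it, and DESeq2 passed 251), so 0 of the 9 IGF genes did. DESeq2 gave Igf1 an adjusted p of 0.0478. As each time was left out the Igf1 difference ran from 0.54, without the 4-week pools, to 0.86, and it was 0.62 without the 32-week pools. On the FPKM scale the matched folds were larger at every time but 1 week, at 1.6, 1.14, 4.76, 1.87 and 4.05. The counts behind 1 FPKM of Igf1 lay between 21.2 and 32.8 in irradiated pools and between 26.6 and 36.9 in controls, so the 2 deposited scales did not move together for this gene. Igf1 (chr10:87858265-87937042, plus strand, GRCm38) has 8 annotated transcripts, and the part of transcript choice in that ratio was not tested.

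Macrophage markers moved beside Igf1 in part. The summed level of 12 monocyte and interstitial macrophage markers was higher in all 5 irradiated pools, with 8 to 11 of the 12 genes higher and matched ratios of 1.70, 1.22, 1.56, 1.39 and 1.33 (irradiated sums 1558 to 2706 CPM, control sums 1111 to 1591). The sum of 10 alveolar macrophage markers was 0.39 of its control at 4 weeks, with 3 of the 10 genes higher and a median log2 fold of -1.13. At 32 weeks the sum was 2.91 times its control with 7 of the 10 higher, but their median log2 fold was only 0.40. The sums ran from 2919 to 21690 CPM in irradiated pools and from 7451 to 14950 CPM in controls. The sum thus moved against Igf1 at the first of these times and with it at the second. Set against the monocyte and interstitial macrophage sum, Igf1 was at 2.34% in the 4-week irradiated pool and 3.05% in that of 32 weeks, beside 1.27% to 2.23% in controls. At 24 hours and 1 week the irradiated values, 1.29% and 1.60%, were under those of their matched controls. Set against the alveolar macrophage sum, Igf1 was at 1.39% in the 4-week irradiated pool, beside 0.189% to 0.286% in controls. In the 32-week irradiated pool it was at 0.219%, within the controls. Against the sum of 12 fibroblast markers, described below, Igf1 was higher in 5 of 5 pairs, at 3.51% beside 0.704% at 32 weeks. Igf1 CPM alone was also higher in 5 of 5 pairs, and the fibroblast sum was 0.447 of its control at 32 weeks. Here and in what follows, a bulk suspension cannot tell fewer cells of a type from less RNA per cell.

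The receptors showed no difference that held across times. Igf1r (chr7:67952827-68233668, plus strand), the signalling receptor, had 3.88, 4.78, 9.54, 8.66 and 7.13 CPM in controls and 7.85, 5.79, 6.29, 4.34 and 9.44 CPM in irradiated pools in time order. The irradiated pool was higher at 24 hours, 1 week and 32 weeks and lower at 4 and 12 weeks, all within the CPM range of the controls. On FPKM the 32-week irradiated pool, at 1.51, was above the highest control, at 1.33. Only 55 to 149 fragments per pool stand behind these values, and 55 fragments carry a 95% Poisson interval of 41.4 to 71.6, for counting error only. Over the 5 times the difference was 0.02 ± 0.31.

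Igf2r (chr17:12682406-12769664, minus strand) had 29.3, 43.9, 48.7, 22.4 and 30.5 CPM in controls and 39.3, 43.9, 42.7, 38.3 and 56.7 CPM in irradiated pools. The irradiated pools were all at 38.3 CPM or above while the controls spread more widely, and only the 32-week irradiated pool lay above every control. On FPKM that pool, at 4.03, was under the 12-week control, at 4.11. The difference over the 5 times was 0.38 ± 0.18 with an edgeR adjusted p of 0.479. The deposited scales disagreed for Igf2r more than for any other of the 9 genes, with 64.4 to 223 counts per FPKM, a 3.47-fold range, and the 12-week matched fold of 1.71 in CPM was 0.938 in FPKM. The antisense gene Airn overlaps Igf2r without sharing exon bases and held 4.42 to 23.6 deposited counts per pool.

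**Figure D2:**
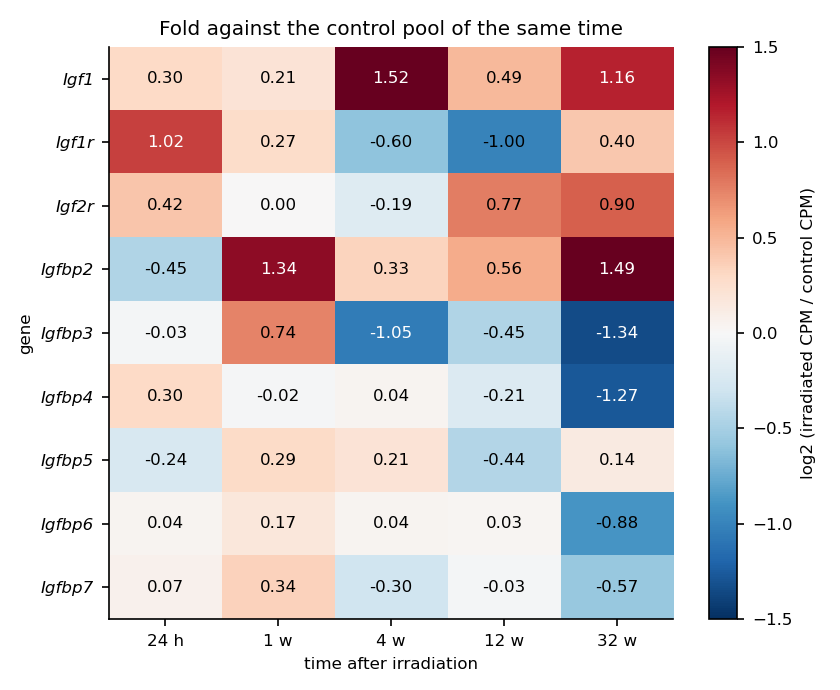
The log2 ratio of irradiated to control CPM for each gene (rows) and time (columns), 1 pool against 1 pool with no test. Igf1 was above 0 at all times, Igfbp2 reached 1.49 at 32 weeks, and Igfbp3 and Igfbp4 were at -1.34 and -1.27 there.

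At 32 weeks the binding proteins differed in direction. Igfbp2 stood at 2.81 times its matched control, Igfbp5 was near its control, and Igfbp3, Igfbp4, Igfbp6 and Igfbp7 were lower than theirs, by 2.53-fold, 2.42-fold, 1.84-fold and 1.48-fold. The median log2 fold of the 6 was -0.72 at that time, beside 0.02 over all genes tested. At 24 hours their median was 0.00. At 1, 4 and 12 weeks it was 0.32, 0.04 and -0.12. Of the 9 IGF genes, 4 were beyond a 2-fold difference from the matched control at 32 weeks, and 16.3% of all genes were.

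Igfbp4 (chr11:99041244-99054392, plus strand) encodes a binding protein that mainly restrains IGF action and is cut by the protease PAPP-A. Controls held 327, 333, 235, 251 and 277 CPM at 24 hours and 1, 4, 12 and 32 weeks, and irradiated pools 402, 328, 242, 217 and 115 CPM. The irradiated values were lower at each successive time, from above all controls at 24 hours to below all of them at 12 and 32 weeks. On FPKM the 12-week order turned, with 111 in the irradiated pool and 88.8 in its control, inside the range of the controls. Against the 5 controls, the 32-week pool was lower by a log2 of -1.31 ± 0.24, and Igfbp4 fell there by edgeR's quasi-likelihood test (adjusted p = 0.0444). It was the only one of the 9 genes to pass at any single time. The percentage of all tested genes passing was 1.06% at 24 hours, 0.0192% at 1 week, 0.0576% at 4 weeks, 0.0% at 12 weeks (1669 genes with an unadjusted p under 0.05, 224 by DESeq2) and 0.826% at 32 weeks, with 0.25% lower at that last time.

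That call was near its limit. It ended when the 24-hour, 1-week, 12-week or 32-week control was left out, with adjusted p of 0.0723, 0.0978, 0.0567 and 0.0562, and on FPKM with limma (0.132 and 0.153), while the direction was the same in 12 of 12 alternatives. The difference ranged from -1.37 to -1.25 over the controls left out and was -0.92 on FPKM with a pseudocount of 1. The comparison sets 1 pool against controls of 5 ages, so its age and its irradiation are told apart only through the control of 32 weeks, which held 277 CPM.

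Igfbp3 (chr11:7206086-7213923, minus strand), whose protein carries most circulating IGF together with the acid-labile subunit, was highest at 1 week and lowest at 32 weeks in irradiated pools. Controls held 61.6, 42.0, 62.3, 49.8 and 65.5 CPM and irradiated pools 60.2, 70.1, 30.0, 36.4 and 25.9 CPM. The last 3 irradiated pools lay under every control and the 1-week pool above every control. At 32 weeks the difference from the 5 controls was -1.12 ± 0.28 (edgeR adjusted p = 0.085), and at 4 weeks -0.91 ± 0.27 (adjusted p = 0.51).

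Igfbp6 (chr15:102144362-102149511, plus strand), whose protein prefers IGF2, moved little until the last time. Matched pools differed by folds of 1.03, 1.13, 1.02 and 1.02 up to 12 weeks, while at 32 weeks the irradiated pool held 57.0 CPM against 104 in its control. It lay below every control only there, at -0.99 ± 0.32 (edgeR adjusted p = 0.16). Igfbp7 (chr5:77349240-77408041, minus strand), known from vessel walls, held 333, 258, 294, 209 and 225 CPM in controls and 350, 328, 239, 205 and 152 CPM in irradiated pools. Its 12-week and 32-week irradiated pools were under every control, the first by little, and the 32-week difference was -0.80 ± 0.26 (adjusted p = 0.166). On FPKM the 12-week irradiated pool of Igfbp7, at 197, was above its control, at 188.5, and inside the range of the controls. Igfbp7 shares 85 exon bases with Polr2b on the other strand, and the library kit named in the labels does not keep strand.

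Igfbp5 (chr1:72857932-72874884, minus strand), a matrix-bound binding protein linked to fibrosis in the literature, was the steadiest. Controls held 81.7 to 120 CPM, with a median of 84.7, and irradiated pools 74.1 to 103 CPM. On CPM only the 12-week irradiated pool, the lowest of the 10, lay outside the control range, and the difference over the 5 times was -0.01 ± 0.13. On FPKM Igfbp5 stayed inside the control range of 7.52 to 13.17 in every irradiated pool, with 8.64 at 12 weeks. At 32 weeks its difference from the 5 controls was -0.07 ± 0.23.

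Igfbp2 (chr1:72824503-72852474, plus strand), described in mouse as a product of mature alveolar type 1 cells, ran the other way. Controls held 7.68, 5.35, 13.4, 6.71 and 15.8 CPM and irradiated pools 5.61, 13.6, 16.9, 9.92 and 44.3 CPM. From 57 to 599 fragments per pool stand behind these values, and 57 fragments carry a 95% Poisson interval of 43.2 to 73.9, for counting error only. The irradiated pool was higher from 1 week on, yet only those of 4 and 32 weeks lay above all controls, and the 32-week pool was far above the rest. Against its matched control, the highest of the 5 at 15.8 CPM, the 32-week irradiated pool was 1.49 higher in log2, with no test. Against all 5 controls, which differ in age, it was 2.18 ± 0.45 higher, with an edgeR adjusted p of 0.0584, which misses the threshold. The direction was the same in 12 of 12 alternatives and 6 of them passed, with adjusted p from 0.00153 to 0.119. Igfbp2 and Igfbp5 are neighbours on chromosome 1, 5457 bases apart and facing each other with no protein-coding gene between them, and their log2 CPM had a Pearson r of -0.2 over the 10 pools.

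**Figure D3:**
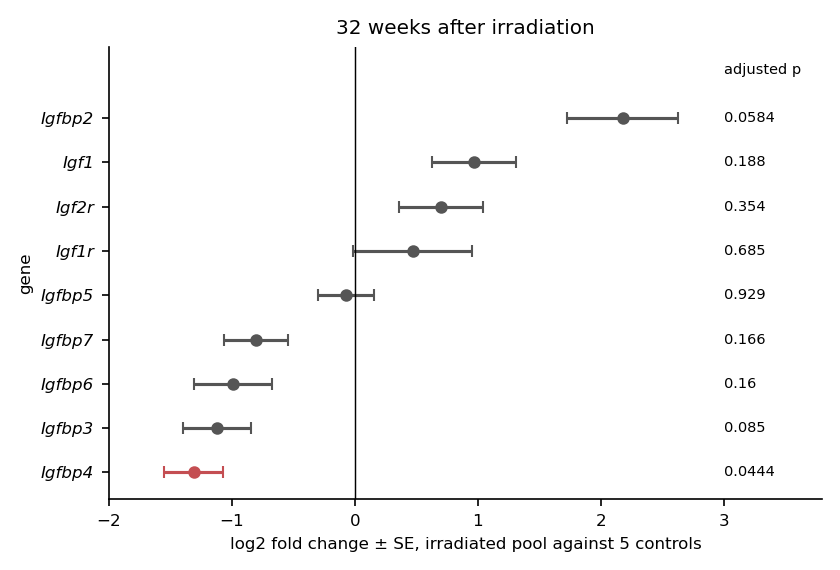
The difference of the 32-week irradiated pool from the 5 controls for each gene, as log2 fold change with its SE and the edgeR adjusted p at the right. Igfbp4, in red at -1.31, passed the threshold of 0.05 and Igfbp2 at 2.18 did not.

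The mix of binding protein transcripts in the 32-week irradiated pool was unlike that of the other pools. Leaving out Igfbp7, whose affinity for IGF is low, Igfbp2 made up 1.07% to 4.71% of the summed FPKM of the other 5 binding proteins in 9 pools and 19.4% in the 32-week irradiated pool. Igfbp4 was 41.1% there and 51.2% to 59.4% elsewhere. The sum itself was 152 FPKM in that pool, the lowest of the 10, beside 199.5 in its control. Igf1 as a percentage of that sum was 4.40%, 3.90%, 9.28%, 13.1% and 19.04% in irradiated pools against 3.25%, 3.67%, 2.22%, 8.10% and 3.58% in controls. It was higher than in the matched control at all 5 times, and 3 irradiated pools lay above all controls. These are transcript ratios and say nothing of free IGF1 protein, and they carry the FPKM scale on which Igf1 differed more.

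**Figure D4:**
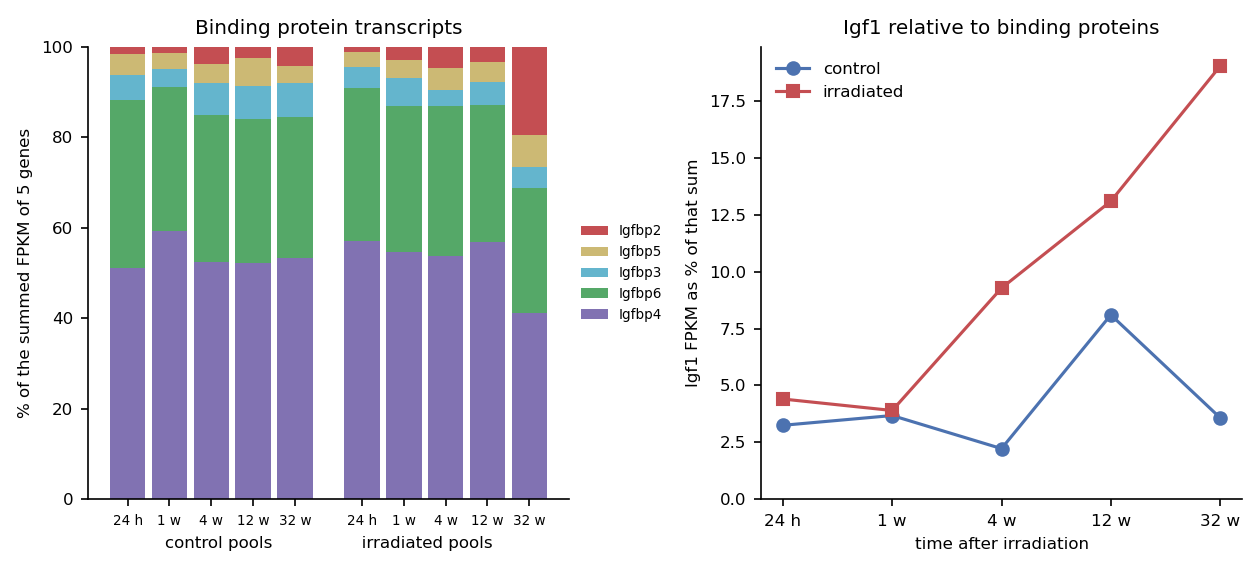
Left, the share of each of 5 binding proteins in their summed FPKM, 1 bar per pool, and right, Igf1 FPKM as a percentage of that sum by time. Igfbp2 took 19.4% and Igf1 stood at 19.04% in the 32-week irradiated pool.

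Fibroblast markers were lower in the same 32-week pool as Igfbp3, Igfbp4, Igfbp6 and Igfbp7, but did not run with all of them at 4 weeks. The sum of 12 fibroblast markers was 1352 CPM in the 32-week irradiated pool against 3026 in its control, a ratio of 0.447 with 12 of 12 genes lower, and the sums ranged from 2698 to 4662 CPM in controls and from 1352 to 4793 CPM in irradiated pools. At 4 weeks the ratio was 0.653, again with 12 of 12 lower, while Igfbp4 and Igfbp6 were at 1.03 and 1.02 times their controls, and at the other times it lay between 0.975 and 1.06. Set against that sum, Igfbp4 was 8.48% in the 32-week irradiated pool and 9.17% in its control, within the 6.11% to 9.31% of the controls. Igfbp3 was 1.91%, also within the controls (1.07% to 2.16%). Igfbp6 at 4.21% and Igfbp7 at 11.2% were above theirs (2.68% to 3.45% and 6.60% to 7.76%), so relative to these markers the 4 genes were within or above the controls in that pool. In the 4-week irradiated pool Igfbp4 (9.61%), Igfbp6 (4.21%) and Igfbp7 (9.50%) were above all controls on this measure, and Igfbp3 (1.19%) was within them. Other lists were also lower at 32 weeks: 6 T cell markers were at 0.494 of their control with 6 of 6 lower (203 to 522 CPM in irradiated pools, 410 to 738 CPM in controls). The 12 endothelial markers were at 1.40 times their control at 32 weeks, with 9 of 12 higher, and at 0.641 at 12 weeks (658 to 1676 CPM in irradiated pools, 815 to 1580 CPM in controls).

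Epithelial marker lists differed in direction at 32 weeks, when Igfbp2 was highest. The sum of 9 alveolar type 2 markers was 0.37 of its control, with 9 of 9 lower, and 0.217 at 12 weeks (7603 to 59910 CPM in irradiated pools, 23910 to 43090 CPM in controls). The sum of 4 club cell markers was 1.67 times its control at 32 weeks with 3 of 4 higher (3677 to 18720 CPM and 3633 to 13380 CPM). The sum of 8 alveolar type 1 markers was 0.89 of its control at 32 weeks with 2 of 8 genes higher (274 to 958 CPM in irradiated pools, 427 to 684 CPM in controls) and 1.95 times its control at 1 week, when Igfbp2 was 2.54 times its control. The sum of 6 ciliated cell markers was 1.87 times its control at 32 weeks with 6 of 6 genes higher (283 to 1057 CPM in irradiated pools, 411 to 679 CPM in controls), and that of 6 mesothelial markers 1.45 times with 4 of 6 higher (440 to 663 CPM and 408 to 590 CPM). Against the alveolar type 1, ciliated and mesothelial sums Igfbp2 was above all 5 controls in the 32-week irradiated pool, at 11.6%, 4.19% and 7.47% where the highest controls were 3.69%, 2.78% and 3.86%. The 5 red cell markers were also at 2.96 times their control at that time, all 5 higher (22270 to 70380 CPM in irradiated pools, 7518 to 68800 CPM in controls), and their part in these values was not tested.

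**Figure D5:**
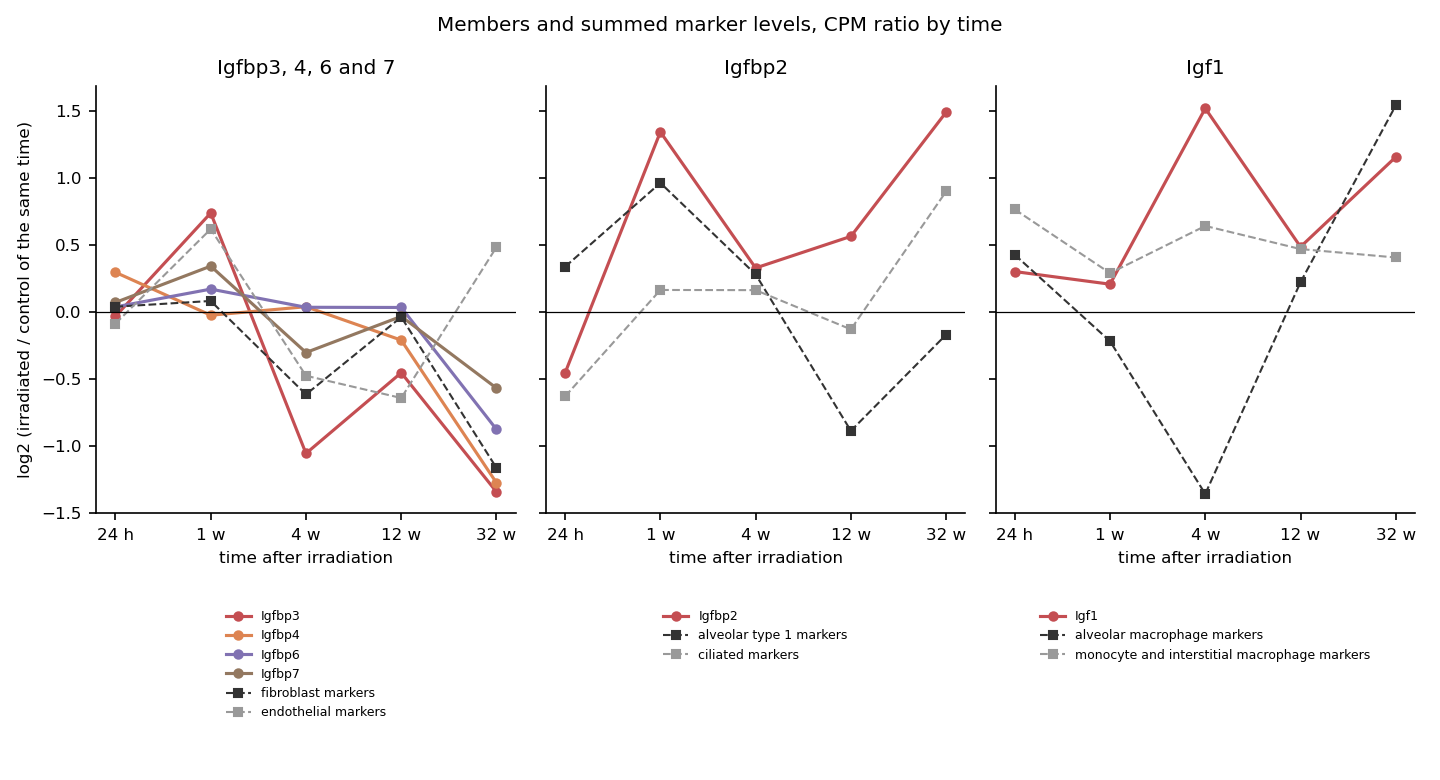
The log2 ratio of irradiated to matched control CPM by time for single genes (circles, solid) and for the summed CPM of marker lists (squares, dashed). At 32 weeks the fibroblast sum (a ratio of 0.447) lay among the 4 lower binding proteins, and Igfbp2 stood above both epithelial lists.

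Whether the effect of irradiation changed with time was tested directly. As a slope on log2 days, the difference between irradiated and control pools changed by -0.16 ± 0.05 per doubling of time for Igfbp4 and by -0.19 ± 0.08 for Igfbp3, with edgeR adjusted p of 0.679 and 0.71. Igfbp2 had 0.17 ± 0.09 and Igf1 0.11 ± 0.07. None of the 9 passed, and 0.0% of all genes did (1095 with an unadjusted p under 0.05, 60 by DESeq2). Without both 32-week pools the slope of Igfbp4 was -0.069. As each time was left out, that of Igfbp2 ran from 0.029, without the 24-hour pools, to 0.22, and that of Igfbp3 from -0.35, also without the 24-hour pools, to -0.13.

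Change in unirradiated lung was tested as a slope in the controls, which also enter every irradiation contrast. Igfbp6 in controls held 158, 122, 103, 79.8 and 104 CPM from 24 hours to 32 weeks, a slope of -0.10 ± 0.03 per doubling of time (unadjusted p = 0.00988, adjusted p = 0.998 in edgeR). Igfbp7 had a slope of -0.07 ± 0.03 and Igf1r of 0.15 ± 0.07. Igfbp6 and Igfbp7 were highest in the 24-hour control, but none of the 9 genes passed and 0.0% of all genes did (673 with an unadjusted p under 0.05, 26 by DESeq2). The other 6 had slopes between -0.05 and 0.12.

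Across the 10 pools, the genes whose log2 CPM ran most like each IGF gene are given as a description, since all points share the same libraries. Igfbp4 ran with Cd248, a surface protein of mesenchymal cells (Pearson r = 0.987, Spearman rho = 0.952), then Col14a1 (r = 0.973, rho = 0.939) and Ddr2 (r = 0.969, rho = 0.782), a collagen and a collagen receptor. The values that follow are r, with rho between 0.855 and 0.976 except for Ogn. Igfbp6 ran with Col6a2 (0.961) and Igfbp7 (0.954), and Igfbp7 with Pmp22 (0.967), the collagen processing enhancer Pcolce (0.964) and Col6a1 (0.957). Igfbp3 ran with Ms4a4d (0.953) and the matrix proteoglycan Ogn (0.950, rho = 0.77). Igfbp2 ran with Dnaaf5 (0.966), a dynein assembly factor of motile cilia, Kcnh3 (0.964) and Cfap65 (0.963), a cilia and flagella protein. Igf1 ran with Slc45a3 (0.962), Lhfpl2 (0.945) and the motor protein Myo5a (0.929). The gene most like Igf1r was Fmn1 (0.956), that most like Igf2r was 6430562O15Rik (0.925) and that most like Igfbp5 was Iah1 (0.925). Among the 9 themselves, Igfbp4, Igfbp6 and Igfbp7 had r of 0.87 to 0.95 with each other, and Igfbp2 had -0.82 with Igfbp4.

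Of 76 other genes of the IGF pathway, 65 were tested and 1 passed in any of the 8 comparisons. Ctsd, the lysosomal protease cathepsin D that Igf2r sorts and that can cut binding proteins, rose at 32 weeks, with 11570 CPM against 3404 in the matched control and a difference from the 5 controls of 1.65 ± 0.26 (edgeR adjusted p = 0.0291). The call ended without the 24-hour or the 1-week control (adjusted p = 0.056 and 0.0887). The summed alveolar macrophage markers were 2.91 times their control in the same pool, with a median log2 fold of 0.40. The median log2 difference of the 65 at 32 weeks was -0.14. By role, 0 of 3 other ligands and carriers, 0 of 5 receptors and partners, 0 of 12 adaptors, 0 of 25 kinases and effectors and 1 of 9 proteases and inhibitors passed there, and 0 of the remaining 11, beside 0.826% of all genes.

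Irs1, an adaptor that links IGF1R to PI3-kinase, held 5.12, 3.08, 4.51, 4.08 and 4.08 CPM in controls and 7.05, 5.03, 4.22, 1.16 and 0.542 CPM in irradiated pools. The last 2 irradiated pools were under every control, on 15 and 7 fragments, and at 32 weeks the difference was -2.92 ± 0.61 (edgeR adjusted p = 0.0618). Irs1 passed with no filter and with DESeq2, as did the binding protein protease Htra3, named after its values were seen, which also passed without the 4-week or the 32-week control. Irs2, the other main adaptor, had 36.8 CPM against 58.9 in its control at 32 weeks, and -0.10 ± 0.38 against the 5 controls. Insr, the insulin receptor, had -0.02 ± 0.38, Grb10, an adaptor that restrains it, 0.31 ± 0.33, Ghr, the growth hormone receptor, -0.03 ± 0.36, and Socs2, a feedback inhibitor of it, -0.47 ± 0.27.

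Of the proteases and their inhibitors, Pappa, Stc1 and Stc2 were scarce, while Ctsd, Htra1 and Adam28 held more in every pool. At 32 weeks the protease Adam28 differed from the 5 controls by 1.62 ± 0.41, which did not pass. Pappa, the protease of Igfbp4, had 0.232 CPM in the 32-week irradiated pool on 3 fragments, against 1.297 in its control, and -3.08 ± 1.03 against the 5 controls (edgeR adjusted p = 0.174). Stc1, which inhibits it, was lower in the irradiated pool in 5 of 5 pairs, as were 5.73% of all genes. Over the 5 times Stc1 and Stc2, another inhibitor on 4 to 26 fragments per pool, differed by -1.17 ± 0.30 and -0.76 ± 0.36 (adjusted p = 0.257 and 0.475). Htra1, which cuts Igfbp5, had 0.13 ± 0.15. The smallest p over the 5 times belonged to Pik3r2, a PI3-kinase regulatory subunit, at 0.55 ± 0.13 (adjusted p = 0.228). Igfals, the acid-labile subunit, held at most 1.44 CPM.

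At the other times the pathway genes with the smallest p were Lrp1, Ctsd and Pappa at 24 hours (0.63 ± 0.21, 0.66 ± 0.27 and -2.06 ± 0.91), Grb14, Grb10 and Pik3ca at 1 week (1.17 ± 0.29, 0.92 ± 0.31 and 0.44 ± 0.18), and Kazald1, Adam28 and Pik3r2 at 4 weeks (-0.95 ± 0.33, 1.12 ± 0.43 and 0.70 ± 0.28). At 12 weeks they included Igf2bp2 and Irs1 (-1.46 ± 0.40 and -1.83 ± 0.54). None of these passed, with edgeR adjusted p from 0.24 up. For a change of the effect with time they were Ccn1, Irs1 and Insr (-0.21, -0.42 and -0.16 per doubling of time), and for the slope in controls they included Ccn1 and Insr (0.18 and 0.11). These 2 tests share the controls, and all their adjusted p were 0.679 or more.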

How the data were processed

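The submitters' processing notes name the build GRCm38.p4 and the tools Trimmomatic (0.32), STAR (2.4.2a), Cufflinks (2.0.2) and Cuffdiff, without their roles. The authors deposited expected counts and FPKM values for 10 libraries. Low deposited counts lay at multiples of a step of 0.576 to 1.38 per library (78.5% to 80.3% of values whole within 0.05), so they had been rescaled, and division by the step gave the fragments quoted. Per the labels' protocols, the library kits were Clontech ultralow and NexteraXT, with no molecular identifiers named. GENCODE M21 gave symbols and GRCm38 coordinates to 45137 of 45786 rows (the rest held at most 0.17% of a library).

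Counts were rounded, scaled by TMM, filtered with filterByExpr (minimum count 10) and tested with edgeR 4.0.16 (R 4.3.3; robust quasi-likelihood, 2-sided, Benjamini-Hochberg over 15625 genes, threshold 0.05). Models were time plus treatment (4 residual degrees of freedom), each irradiated pool against the 5 controls (4, assuming that it varies like them), treatment by log2 days (3) and log2 days in controls (6). Each pool is 1 library and no time had a further pool of its kind, so no p-value measures the spread between replicate pools. Over the 5 times the spread is that of the irradiation difference between times. At single times it is that of controls of 5 ages, and in the slope models that of pools about the fitted lines. In each case biological and technical spread come together. Alternatives were total count scaling, DESeq2 size factors, no filter, DESeq2 1.42.0, limma 3.58.1 on log2(FPKM + 1 or 0.1), counts divided by the step, no time block, early against late times, controls alone and each replicate left out. Each SE printed was worked back from the edgeR test, as the absolute log2 difference over the square root of its F. Code was tested on simulated data. The 9 genes and all gene lists were chosen with earlier results of these data known. Of the pathway list, 12 preset genes are named, with those that passed or, where none did, the 3 with the smallest p, except that some of these are not reported here.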

Additional observations from a re-analysis of the deposited data

How the results depend on the processing

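Over the 5 times 0 of the 9 genes passed with edgeR and 1 (Igf1) with DESeq2; of the other pathway genes 0 passed with edgeR and 1 (Ctsd) with DESeq2. At 32 weeks 1 of the 9 passed, against 3 with no filter, 5 with DESeq2 and 0 to 2 as each control was left out. The pathway count of 1 at that time was 3 with no filter, 4 with DESeq2, 2 with limma on FPKM at a pseudocount of 1 and 0 to 2 as each control was left out, and at 1 week it was 0 with edgeR and 1 (Grb14) with DESeq2. The alternatives for the pathway counts were chosen after seeing the data. In all, 129 of the 15625 genes (0.826%) passed at 32 weeks. That count was 365 with no filter, which tested more genes, 831 with DESeq2 and 381 with limma on FPKM at a pseudocount of 1. As the 5 controls were left out in time order it was 37, 8, 299, 84 and 116.

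Over the 5 times, signs turned for differences near 0. Igf1r was -0.05 with total count scaling, -0.011 with no time block and -0.23 to 0.27 as each time was left out. On FPKM with pseudocounts of 1 and 0.1, Igfbp4 was 0.032 and 0.031, Igfbp5 0.13 and 0.14, Igfbp6 0.0058 and 0.0053, and Igfbp7 0.017 and 0.017. As each time was left out, Igfbp4 ran from -0.36 to 0.026, Igfbp5 from -0.083 to 0.10, Igfbp6 from -0.19 to 0.07 and Igfbp7 from -0.21 to 0.02. At 32 weeks Igfbp5 was 0.14 and 0.15 on FPKM and ran from -0.11 to 0.037 as each control was left out. The cause was not tested. Among alternative tests of single genes, 278 kept direction and side of the threshold, 21 turned sign, 11 gained the threshold and 6 lost it. Matched folds taken from FPKM, an alternative chosen after seeing the data, moved by more than the spread of the controls in 9 of 45 cases, 5 of them at 32 weeks.

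The labels give no replicate numbers, and the comparison over the 5 times is paired by time through its time block. With 1 pool per time and treatment, a difference between 2 pools has no replicate check. Igf1r, Irs1 and Pappa rest on few fragments, as does Igfbp2 in its lowest pool, the 12-week control with 57. Pools do not show the spread between mice.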
